A study of Mus musculus with 13 samples.

Results

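The genes described here encode the proteins that start and carry out DNA replication: 48 listed genes of the origin recognition complex, the licensing factors, the MCM2-7 helicase and its activators, GINS, primase and the replicative polymerases, the single-strand binding protein RPA, the sliding clamp and its loader, the enzymes that finish Okazaki fragments, and the factors that travel with the fork. Each gene was followed through the probe set with the highest mean signal among those listed with its symbol alone. That rule gave values for 47 of the 48 genes, out of 22180 genes measured on the array. The other gene, Rfc4, shares its probe set with another gene and was not analysed here.

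Spleens of C57Bl/6 mice, littermates labelled as male, gave the cells, which were sorted as CD205+CD8+ dendritic cells. All mice, controls included, carried a subcutaneous B16 melanoma secreting Flt3L, a growth factor for dendritic cells, placed at 6 weeks of age with 5e6 cells. They received 100 ul of PBS intraperitoneally after 5 days, alone or with 50 ug of muramyl dipeptide (MDP), a bacterial cell wall fragment sensed by NOD2, and spleens were taken 24 h later. The sorted cells were divided by surface CD103, the αE integrin, into a high and a low gate. The 13 arrays fell into 4 groups: the high gate of MDP mice (MDP CD103 high, n = 3) and of PBS mice (PBS CD103 high, n = 3), and the low gate of MDP mice (MDP CD103 low, n = 3) and of PBS mice (PBS CD103 low, n = 4). All groups thus share the tumour and its Flt3L, and no group without them was analysed here. The number of arrays limits the precision, and the labels do not say whether arrays are separate mice, so p-values measure only how these samples spread, which may be technical.

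Replication starts where the origin recognition complex (ORC) sits on DNA and, with Cdc6 and Cdt1, loads rings of MCM2-7 in G1 phase. The kinase Cdc7 with Dbf4, and Mcm10, then help Cdc45 and GINS join the ring to form the active CMG helicase. Polymerase alpha with primase lays down primers, polymerases epsilon and delta extend them with the clamp PCNA, and Fen1 and DNA ligase 1 join the fragments. Many of these genes are transcribed late in G1 phase by E2F factors, so their messages are abundant in dividing cells. Conventional dendritic cells still divide in lymphoid organs, and Flt3L supports this.

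Because E2F sites are known in several of these promoters, the 250 bases before and 50 bases after each start site of RefSeq (build GRCm38.p6) were searched on both strands for the E2F-type letters TTTCCCGC, TTTCGCGC, TTTGCCGC or TTTGGCGC, of which a pair can overlap. Windows were present for 39 of the 48 members, and 16 of them (41.0%) held at least 1 match, against 2.61% of 27025 genes with a window. Stretches just before the start site are shown for 3 members that later rose and hold matches, for 1 that did not pass the test and holds one, and for the member with the largest rise, which holds none. Capitals mark the matched letters, and each stretch is written 5′ to 3′ on the strand of its gene and lies outside every gene of the RefSeq gene table; that of Mcm5 ends where an annotated transcript begins. Mcm6, a helicase subunit on the minus strand at chr1:128359706-128359865, is followed by Mcm5, another helicase subunit on the plus strand at chr8:75109349-75109467. Rfc3, a clamp loader subunit, lies on the minus strand at chr5:151651209-151651368, Gins3, a GINS subunit, on the plus strand at chr8:95633399-95633558, and Lrr1 on the plus strand at chr12:69168654-69168813.
Mcm6: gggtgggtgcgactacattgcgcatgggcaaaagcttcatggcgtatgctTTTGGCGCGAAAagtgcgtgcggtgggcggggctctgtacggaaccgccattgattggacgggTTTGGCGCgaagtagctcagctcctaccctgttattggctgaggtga
Mcm5: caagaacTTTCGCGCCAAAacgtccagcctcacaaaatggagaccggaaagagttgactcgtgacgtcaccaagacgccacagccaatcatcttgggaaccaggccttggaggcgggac
Rfc3: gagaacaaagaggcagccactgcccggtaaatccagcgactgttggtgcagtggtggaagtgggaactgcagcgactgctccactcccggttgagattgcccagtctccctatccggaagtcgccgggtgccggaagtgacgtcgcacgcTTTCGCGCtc
Gins3: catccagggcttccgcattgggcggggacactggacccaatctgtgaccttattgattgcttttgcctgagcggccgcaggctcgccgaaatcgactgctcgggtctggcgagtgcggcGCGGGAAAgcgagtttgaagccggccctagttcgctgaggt
Lrr1: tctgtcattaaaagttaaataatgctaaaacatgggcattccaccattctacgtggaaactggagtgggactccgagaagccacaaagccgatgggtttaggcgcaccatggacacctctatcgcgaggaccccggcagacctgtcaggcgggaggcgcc
Overlapping matches on opposite strands merge into a longer run of capitals, as in Mcm6 and Mcm5. Of the members with a window, 13 of the 29 that rose in MDP CD103 high cells and 3 of the 9 measured members that did not pass held a match; the members with one were Cdc6, Cdt1, Clspn, Gins3, Lig1, Mcm3, Mcm5, Mcm6, Mcm7, Orc1, Orc3, Pola1, Pold1, Pold3, Pole2 and Rfc3. The letters TTTGAA or TTCGAA, of the CHR type, were found in 9 of the 39 (23.1%), against 21.7% of genes, and CCAAT in 22 (56.4%), against 41.1%. A match describes letters in a window and is not a measured binding site.

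All 47 members had a mean above 5.12 on the log2 scale, the 95th percentile of 1105 olfactory receptor genes, which served as a mark of background. The sorted cells were read against their markers: all 11 measured genes of the type 1 conventional dendritic cell list lay above that mark. That list includes Cd8a, Ly75 (CD205) and Itgae (CD103), on which the cells were sorted. The mark was also passed by 12 of 13 mature dendritic cell, 8 of 10 plasmacytoid, 6 of 9 cDC2 and 6 of 7 monocyte and macrophage genes. It was passed by 1 of 7 neutrophil, 1 of 6 B cell, 2 of 6 T cell and 2 of 6 natural killer cell genes. The mark therefore does not single out a type of dendritic cell. Although every mouse was labelled male, 7 of the 13 arrays had high Xist and 6 had low Xist, with both kinds in each group. The mean of Y-linked genes was 3.50 to 4.39 in the arrays with high Xist and 7.85 to 8.21 in those with low Xist. The arrays thus differed in sex-linked signal, against their shared label. The main counts are therefore also given with the Xist class in the model. A set of 3 arrays stood apart for these genes. MDP CD103 low array 1 was the lowest of its group in 42 of 47 members, PBS CD103 low array 6 the lowest in 40, and PBS CD103 high array 4 the highest in 46. Over all genes the shares were 39.9%, 28.8% and 34.1%. Each of the 3 was left out in turn, as were the others.

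The 3 MDP CD103 high arrays were the highest for most of these genes. The mean over the 47 members was 8.54, 8.56 and 8.56 in them, on the log2 scale. It was 8.07, 7.80 and 7.74 in the PBS CD103 high arrays. It was 7.92, 8.15 and 8.13 in the MDP CD103 low arrays and 8.15, 8.13, 8.10 and 7.90 in the PBS CD103 low arrays. In 39 of 47 members each MDP CD103 high array lay above the other 10 arrays, which held for 2.11% of all genes. The choice of genes was made with earlier results known, so these counts describe the genes and do not test them. In bulk RNA from sorted cells, more cells in cycle and more message in each cannot be told apart.

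**Figure D1:**
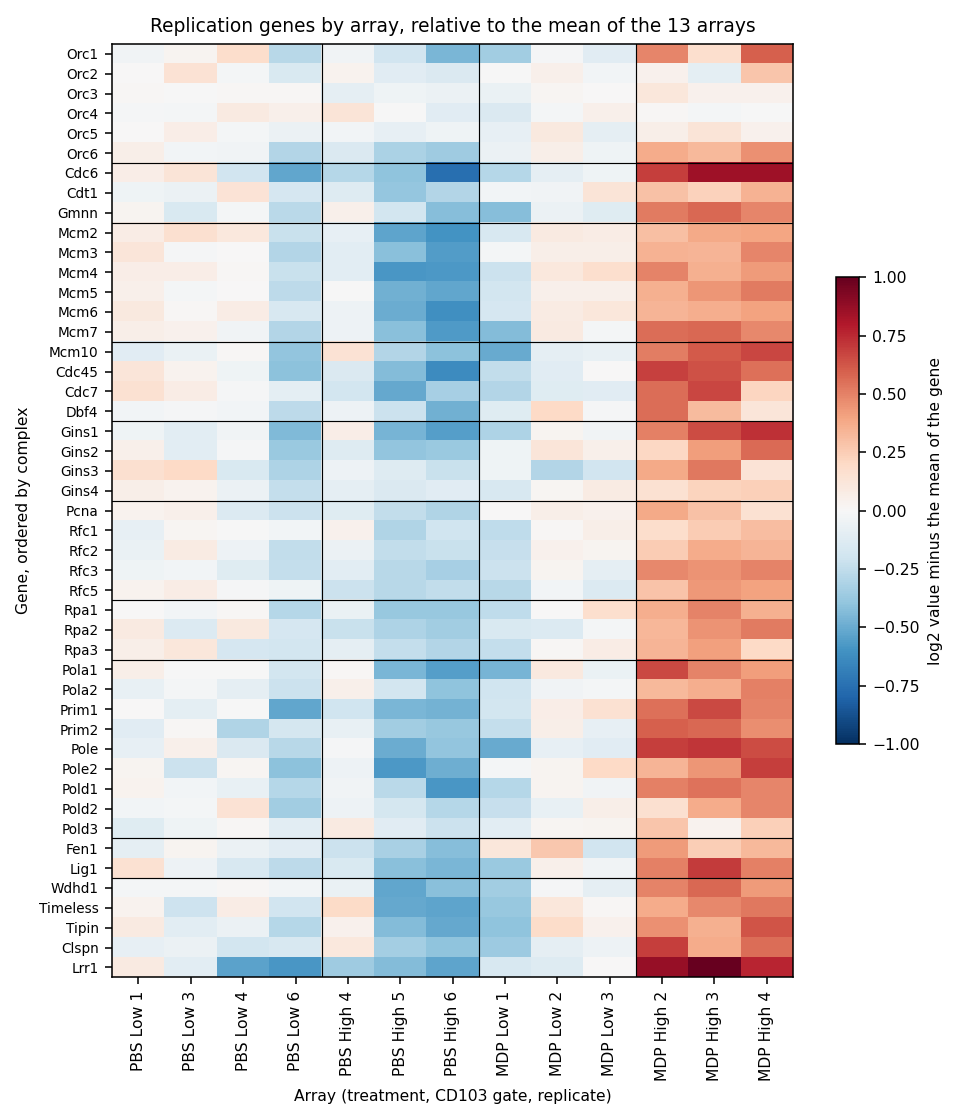
Colour shows each member's log2 signal on each array minus that gene's mean over the 13 arrays (colour scale from -1 to 1), with genes in rows by complex and arrays in columns by group. The 3 MDP CD103 high columns are the warmest in most rows, whereas Orc2, Orc3, Orc4 and Orc5 stay near their mean on all arrays.

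In CD103 high cells most replication genes were higher after MDP than after PBS. In that comparison 37 of 47 members rose and 0 fell at an adjusted p of 0.05, with a median log2 difference of 0.73. Among all genes 1.42% rose, and the median difference was -0.01. In 44 members the 3 MDP arrays lay wholly above the 3 PBS arrays, which was the case for 8.96% of all genes. Members at least 2-fold higher were Cdc6, Lrr1 and Cdc45. The count was 38 with the Xist class in the model and 21 when only these 6 arrays were fitted. Without PBS CD103 high array 5 or array 6 it was 14, without MDP CD103 high array 2 it was 19 and without array 3 it was 20. Among the arrays of low Xist alone or of high Xist alone the count was 0, with medians of 0.89 and 0.66. The median over members stayed between 0.65 and 0.89 in every alternative run.

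The same injection gave no call among these genes in CD103 low cells. Of the 47 members 0 passed the test in either direction with limma, and 1 had an unadjusted p under 0.05, against 1343 of all 22180 genes. The members' median difference was -0.00, with 23 above and 24 below 0, and 0.00451% of all genes passed. All differences lay between -0.21 and 0.21, and the median stayed between -0.04 and 0.08 in every alternative run. The 1 gene that passed among all genes was Itgae, which encodes CD103, higher by 2.21 with MDP. Itgae read 10.68, 10.07 and 9.64 in MDP CD103 low and 8.35, 8.17, 7.73 and 7.46 in PBS CD103 low arrays. Its values were 10.16, 10.22 and 10.07 in PBS CD103 high and 11.44, 11.10 and 11.51 in MDP CD103 high arrays. Whether a gate held the same cells in both treatments was not tested. For 45 of 47 members the upper 95% bound of the difference in low cells was under the difference measured in high cells. That count leaves out the SE of the difference in high cells, is not a test, and was not taken over all genes. The difference between the 2 responses was itself tested: it was above 0 in all 47 members, with a median of 0.75, and passed the threshold in 4, Rfc5, Rpa2, Wdhd1 and Cdc7, against 0.0721% of all genes in that direction. In all, 42 of the 47 members had an unadjusted p under 0.05 in that test, against 2137 of all 22180 genes.

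That count of 4 was the least stable. It was 9 with the replicate number blocked within a treatment and 0 with the Xist class in the model. It was 23 without PBS CD103 high array 4 and 11 without PBS CD103 low array 6. It was 1 without MDP CD103 low array 2 and 0 when any 1 of the other 10 arrays was left out. The median over members ranged from 0.64 to 0.83 over these and the other alternatives.

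Between the gates, the median difference of the members was below 0 in PBS mice, where none passed, and above 0 in MDP mice. In PBS mice 0 of 47 members passed with limma, against 0.0766% of all genes in either direction. An unadjusted p under 0.05 was found in 14 members, against 1889 of all 22180 genes. All 47 differences, CD103 high minus low, were below 0, with a median of -0.20, against -0.00 over all genes. The arrays did not overlap in 6 members, the high gate being lower, which was the case for 4.05% of all genes. The median was -0.12 without PBS CD103 high array 6 and -0.30 without PBS CD103 high array 4.

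In MDP mice the high gate was above the low gate in all 47 members. There 14 passed as higher and 0 as lower, with a median of 0.48, against 0.473% of all genes called higher. The arrays of the gates did not overlap in 42 members, which held for 6.43% of all genes. All 14 also rose with MDP in CD103 high cells, a comparison that uses the same 3 MDP CD103 high arrays. The count fell to 0 without MDP CD103 low array 1, MDP CD103 high array 2 or MDP CD103 high array 3, and when only the 6 MDP arrays were fitted. It was 5 without MDP CD103 low array 3 or MDP CD103 high array 4, 9 without PBS CD103 low array 3 or array 4, and 8 with the Xist class in the model. The median stayed between 0.39 and 0.52.

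**Figure D2:**
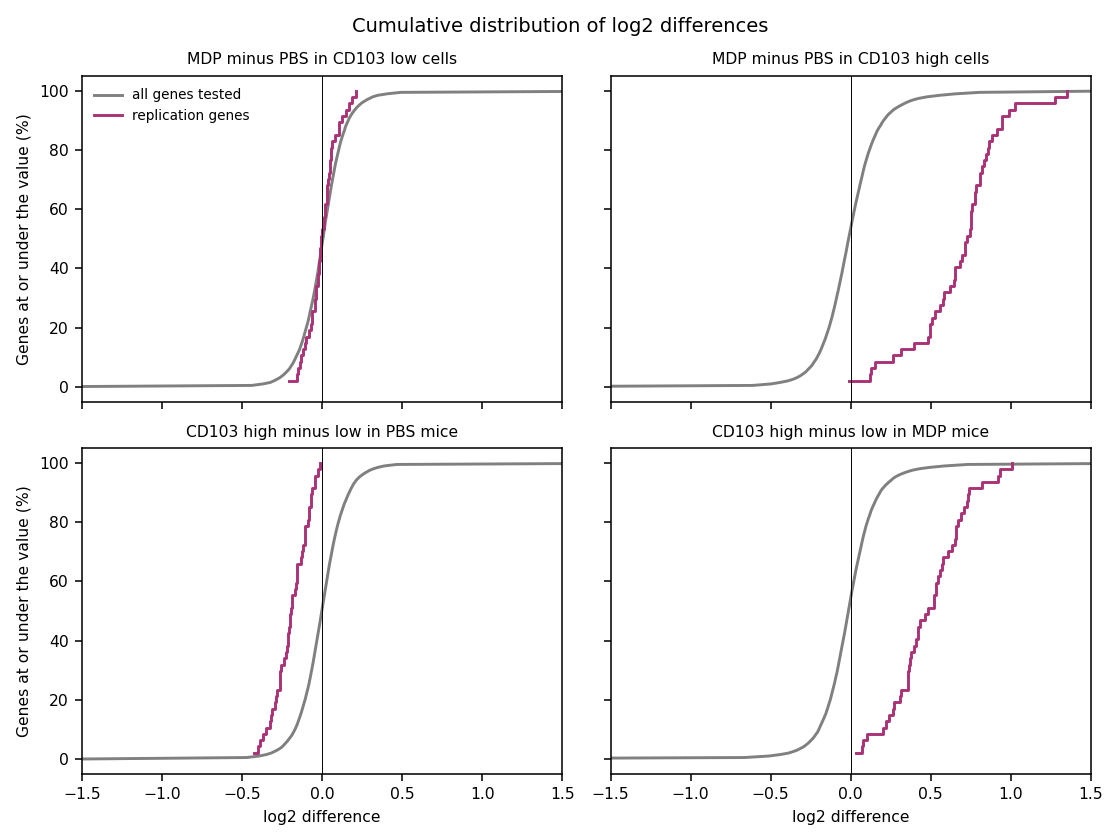
Cumulative percent of genes (vertical axis) by log2 difference (horizontal axis) for the 47 members and for all 22180 genes, in each comparison. The curve of the members lies to the right of that of all genes for MDP minus PBS in CD103 high cells (median 0.73), runs near it in CD103 low cells (median -0.00), and lies to the left for CD103 high minus low in PBS mice (median -0.20).

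**Figure D3:**
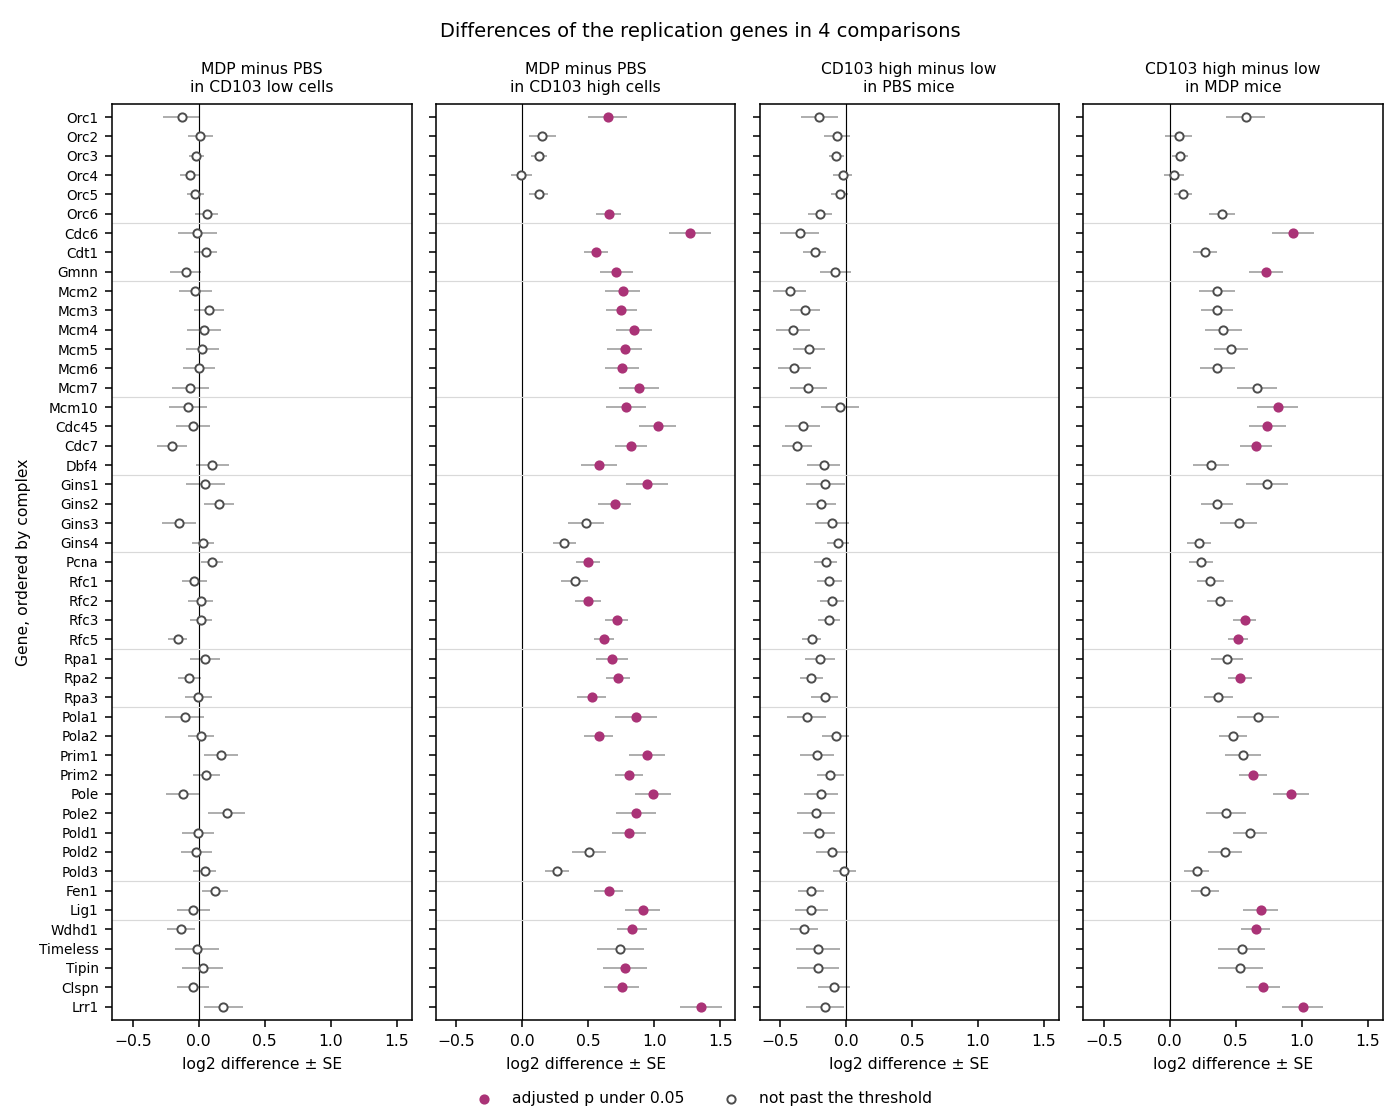
Log2 difference with its SE for each member (rows, by complex) in 4 comparisons (panels); filled points have an adjusted p under 0.05. For MDP minus PBS, the points of CD103 low cells lie within 0.21 of 0 and 37 of the 47 points of CD103 high cells are filled; between the gates 14 are filled in MDP mice and 0 in PBS mice.

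ORC marks origins and is built of subunits Orc1 to Orc6. It was the group with the smallest response: 2 of 6 subunits, Orc1 and Orc6, rose with MDP in CD103 high cells, and the median difference was 0.14. Orc6, the subunit least tightly held in the complex, read 8.60, 8.56 and 8.69 in MDP CD103 high and 8.09, 7.92 and 7.88 in PBS CD103 high arrays. It read 8.18, 8.29 and 8.19 in MDP CD103 low and 8.29, 8.21, 8.20 and 7.94 in PBS CD103 low arrays. Every other array lay below the 3 MDP CD103 high arrays, while the CD103 low arrays of both treatments overlapped. The difference in CD103 high cells was 0.65 ± 0.09 (adjusted p = 0.0052).

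Orc1, the subunit whose amount is known to vary over the cell cycle, rose by 0.65 ± 0.15 (adjusted p = 0.0436). The 4 core subunits did not pass. Orc2 differed by 0.15 ± 0.10 (adjusted p = 0.591), Orc3 by 0.13 ± 0.06 (adjusted p = 0.385), Orc4 by -0.01 ± 0.08 (adjusted p = 0.981) and Orc5 by 0.12 ± 0.07 (adjusted p = 0.503). Their 95% intervals reached up to 0.37, 0.26, 0.16 and 0.28. These bounds are below the median of 0.73 over all members. Whether these 4 differ from the other members was not tested. For Orc3 the 3 MDP CD103 high arrays still lay above the 10 others, which held for 2.11% of all genes. For Orc5 they lay above the 3 PBS CD103 high arrays, which was the case for 8.96% of all genes. Between gates 0 of 6 subunits passed in either treatment.

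The licensing factors and their inhibitor all rose in CD103 high cells after MDP. Cdc6, the loader that joins ORC to recruit the helicase, read 8.47, 8.62 and 8.62 in the MDP CD103 high arrays and 7.49, 7.38 and 7.03 in the PBS CD103 high arrays. In the low gate it read 7.49, 7.69 and 7.73 with MDP and 7.85, 7.91, 7.59 and 7.26 with PBS. The highest 3 of the 13 arrays were those of MDP CD103 high, and within the low gate the treatments overlapped. The difference in CD103 high cells was 1.27 ± 0.16, a 2.42-fold rise (adjusted p = 0.00428), and MDP CD103 high exceeded MDP CD103 low by 0.93 ± 0.16 (adjusted p = 0.0247).

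Cdt1, which brings MCM2-7 to ORC and Cdc6, rose by 0.56 ± 0.09 (adjusted p = 0.0106). Geminin (Gmnn), which binds and blocks Cdt1 after licensing, rose by 0.71 ± 0.13 (adjusted p = 0.0145) and was also higher in the high than in the low gate of MDP mice, by 0.73 ± 0.13 (adjusted p = 0.0257). The factor and its inhibitor thus rose in the same arrays. In CD103 low cells their differences were 0.05 and -0.10.

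All 6 subunits of the MCM2-7 helicase, the ring that unwinds DNA ahead of the fork, rose in CD103 high cells. The rises were alike in size, from 0.75 in Mcm3 to 0.88 in Mcm7, with a median of 0.77. Mcm3 read 9.95, 9.94 and 10.09 in MDP CD103 high and 9.50, 9.19 and 9.05 in PBS CD103 high arrays. It read 9.58, 9.66 and 9.66 in MDP CD103 low and 9.73, 9.59, 9.61 and 9.31 in PBS CD103 low arrays. No other array reached the 3 of MDP CD103 high, and in low cells the MDP and PBS arrays overlapped. Its difference was 0.75 ± 0.12 (adjusted p = 0.00893).

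Mcm2 is named for the gates of PBS mice. It read 9.44, 8.997 and 8.93 in PBS CD103 high arrays and 9.59, 9.68, 9.62 and 9.30 in PBS CD103 low arrays, the widest mean difference of any member there at -0.43 ± 0.13, without passing (adjusted p = 0.365). In MDP mice it read 9.82, 9.90 and 9.92 in the high gate and 9.36, 9.61 and 9.59 in the low gate. All 3 MDP CD103 high arrays lay above the other 10, and the MDP and PBS arrays of the low gate overlapped. With MDP it rose by 0.76 ± 0.13 in CD103 high cells (adjusted p = 0.0137).

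Mcm4, Mcm5, Mcm6 and Mcm7 rose by 0.84, 0.77, 0.75 and 0.88, with adjusted p-values of 0.00956, 0.0118, 0.0128 and 0.012. Mcm5 and Mcm6 are the subunits whose upstream stretches with E2F-type letters are printed above. Between the gates of MDP mice 0 of 6 subunits passed with limma, although all 6 had an unadjusted p under 0.05, against 2255 of all 22180 genes. The differences of the 6 subunits lay between 0.36 and 0.66, and that of Mcm7, the largest, had an adjusted p of 0.0865. In PBS mice all 6 were below 0, with a median of -0.35, the lowest median of the 10 complexes, and none passed.

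The 4 genes that turn the loaded ring into an active helicase all rose in CD103 high cells, with a median of 0.80. Cdc45, which joins MCM2-7 and GINS as the third part of CMG, read 8.43, 8.38 and 8.30 in MDP CD103 high and 7.60, 7.31 and 7.12 in PBS CD103 high arrays. In CD103 low cells it read 7.50, 7.63 and 7.75 with MDP and 7.87, 7.78, 7.70 and 7.34 with PBS. Every other array lay below the 3 MDP CD103 high arrays, while the CD103 low arrays of both treatments overlapped. The rise was 1.02 ± 0.14, or 2.03-fold (adjusted p = 0.00502), and the gates of MDP mice differed by 0.74 ± 0.14 (adjusted p = 0.0366).

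Cdc7, the kinase that phosphorylates MCM2-7 to fire origins, was among the 3 members with the smallest p in 2 comparisons, between the gates of PBS mice and for MDP in CD103 low cells. Its values were 7.28, 7.39 and 6.94 in MDP CD103 high and 6.54, 6.21 and 6.39 in PBS CD103 high arrays. They were 6.43, 6.60 and 6.61 in MDP CD103 low and 6.88, 6.80, 6.71 and 6.62 in PBS CD103 low arrays. The highest 3 of the 13 arrays were those of MDP CD103 high, and in the low gate the MDP arrays lay wholly below the PBS arrays. It rose by 0.82 ± 0.12 in high cells (adjusted p = 0.00582) and differed by -0.21 ± 0.11 in low cells (adjusted p = 0.826).

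The difference between those responses of Cdc7 was 1.03 ± 0.17 (adjusted p = 0.0486), the widest of the 4 that passed. Its partner Dbf4, which activates the kinase, rose by 0.58 ± 0.13 (adjusted p = 0.0468), with 0.48 ± 0.18 for the difference between responses (adjusted p = 0.417). Mcm10, needed for CMG to start unwinding, rose by 0.78 ± 0.15 (adjusted p = 0.022) and was higher in the high gate of MDP mice by 0.82 ± 0.15 (adjusted p = 0.0352).

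GINS, a ring of 4 subunits, was split by the threshold. Gins1 read 8.02, 8.16 and 8.24 in MDP CD103 high and 7.58, 7.05 and 6.96 in PBS CD103 high arrays. Its CD103 low values were 7.20, 7.54 and 7.47 with MDP and 7.46, 7.40, 7.48 and 7.07 with PBS. The highest 3 of the 13 arrays were those of MDP CD103 high, and within the low gate the treatments overlapped. Gins1 rose by 0.95 ± 0.16 (adjusted p = 0.0112) and Gins2 by 0.70 ± 0.12 (adjusted p = 0.013). Gins3 and Gins4 differed by 0.48 ± 0.14 and 0.32 ± 0.09 and did not pass (adjusted p = 0.116 and 0.11). Gins3 is the member shown above that holds E2F-type letters and missed the threshold. The 4 subunits had a median of 0.59 there, and 0 of 4 passed between the gates in either treatment.

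Of the 9 genes of primase and the polymerases, 7 rose in CD103 high cells, with a median of 0.81. Prim2, the large primase subunit, read 8.17, 8.15 and 8.04 in MDP CD103 high and 7.51, 7.23 and 7.20 in PBS CD103 high arrays. It read 7.34, 7.64 and 7.49 in MDP CD103 low and 7.47, 7.59, 7.28 and 7.40 in PBS CD103 low arrays. No other array reached the 3 of MDP CD103 high, and in low cells the MDP and PBS arrays overlapped. The rise was 0.81 ± 0.11 (adjusted p = 0.00491), and the gates of MDP mice differed by 0.63 ± 0.11 (adjusted p = 0.0247).

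Prim1, the catalytic primase subunit, rose by 0.95 ± 0.14 (adjusted p = 0.0052). Pola1, the catalytic subunit of polymerase alpha, rose by 0.86 ± 0.16 and its partner Pola2 by 0.58 ± 0.11 (adjusted p = 0.016 and 0.0167). The priming complex thus rose as a whole, all 4 of its genes having passed. Prim2 also passed between the gates of MDP mice, where the other 3 did not (adjusted p = 0.113 for Prim1, 0.0968 for Pola1 and 0.0777 for Pola2).

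Pole, the catalytic subunit of the leading-strand polymerase epsilon, read 8.93, 8.95 and 8.89 in MDP CD103 high and 7.73, 8.15 and 8.12 in MDP CD103 low arrays. With PBS it read 8.22, 7.74 and 7.84 in the high and 8.15, 8.29, 8.09 and 7.96 in the low gate. All 3 MDP CD103 high arrays lay above the other 10, and the MDP and PBS arrays of the low gate overlapped. It was higher in the high gate of MDP mice by 0.92 ± 0.14 (adjusted p = 0.018) and rose with MDP by 0.99 ± 0.14 (adjusted p = 0.00502). A second Pole probe set, whose mean of 4.25 lies below the background mark, differed by 0.42 and 0.54 in the same comparisons and did not pass (adjusted p = 0.284 and 0.0708).

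Pole2, the second subunit of polymerase epsilon, is named for CD103 low cells. It read 6.32, 6.37 and 6.54 there with MDP and 6.37, 6.13, 6.37 and 5.94 with PBS. It read 6.69, 6.79 and 7.03 in MDP CD103 high and 6.30, 5.77 and 5.86 in PBS CD103 high arrays. Every other array lay below the 3 MDP CD103 high arrays, while the CD103 low arrays of both treatments overlapped. The difference in low cells, 0.21 ± 0.14, did not pass (adjusted p = 0.837), and that in high cells, 0.86 ± 0.15, did (adjusted p = 0.0131).

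In polymerase delta, which copies the lagging strand, 1 of the 3 subunits among the members rose; the subunit Pold4, outside the 48 genes, is given with the other replication genes. The catalytic subunit Pold1 rose by 0.81 ± 0.13 (adjusted p = 0.00932). The accessory subunits Pold2 and Pold3 differed by 0.51 ± 0.13 and 0.26 ± 0.09 without passing (adjusted p = 0.0704 and 0.22).

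RPA coats the single strands that the helicase exposes, and all 3 subunits rose in CD103 high cells, with a median of 0.68. Rpa2 read 8.12, 8.24 and 8.31 in MDP CD103 high and 7.57, 7.48 and 7.44 in PBS CD103 high arrays. Its CD103 low values were 7.64, 7.66 and 7.77 with MDP and 7.88, 7.66, 7.89 and 7.62 with PBS. The highest 3 of the 13 arrays were those of MDP CD103 high, and within the low gate the treatments overlapped. Rpa2 rose by 0.73 ± 0.09 in high cells (adjusted p = 0.00428), differed by -0.07 ± 0.09 in low cells (adjusted p = 0.911), and the difference of these passed at 0.80 ± 0.12 (adjusted p = 0.0486).

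Rpa1, the large DNA-binding subunit, rose by 0.68 ± 0.12 and Rpa3, the small subunit, by 0.52 ± 0.11 (adjusted p = 0.0147 and 0.0293). The second probe set of Rpa1, whose mean of 4.88 lies below the background mark, differed by 0.34 and that of Rpa3, above the mark, by 0.37, and neither passed (adjusted p = 0.428 and 0.0972). Between the gates of MDP mice Rpa2 was the subunit that passed, with 0.53 ± 0.09 (adjusted p = 0.0247).

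In the clamp and its loader 4 of 5 measured genes rose, with a median of 0.50, below that of the other complexes except ORC. Rfc3, a small subunit of replication factor C, read 7.48, 7.44 and 7.50 in MDP CD103 high and 6.89, 6.72 and 6.66 in PBS CD103 high arrays. It read 6.79, 7.02 and 6.91 in MDP CD103 low and 6.95, 6.97, 6.87 and 6.76 in PBS CD103 low arrays. No other array reached the 3 of MDP CD103 high, and in low cells the MDP and PBS arrays overlapped. It rose by 0.72 ± 0.09 with MDP in CD103 high cells (adjusted p = 0.00428), and the gates of MDP mice differed by 0.57 ± 0.09 (adjusted p = 0.018).

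Rfc5, another small subunit, was among the 3 smallest p in all 5 comparisons. It read 8.12, 8.27 and 8.24 in MDP CD103 high and 7.63, 7.56 and 7.59 in PBS CD103 high arrays. Its CD103 low values were 7.56, 7.81 and 7.70 with MDP and 7.87, 7.91, 7.82 and 7.80 with PBS. All 3 MDP CD103 high arrays lay above the other 10, and the MDP and PBS arrays of the low gate overlapped. Its rise in high cells was 0.62 ± 0.08 (adjusted p = 0.00428), and the gates of MDP mice differed by 0.52 ± 0.08 (adjusted p = 0.018).

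In CD103 low cells Rfc5 differed by -0.16 ± 0.07 (adjusted p = 0.814) and between the gates of PBS mice by -0.26 ± 0.07 (adjusted p = 0.323), neither of which passed. The difference between the MDP responses of the gates passed at 0.78 ± 0.11 (adjusted p = 0.0486). The SE of Rfc5 in the MDP comparison of high cells, 0.08, is below that of Cdc6, 0.16.

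Pcna, the sliding clamp itself, rose by 0.50 ± 0.09 (adjusted p = 0.0153). Rfc2 rose by 0.50 ± 0.10 (adjusted p = 0.0243). Rfc1, the large loader subunit, differed by 0.40 ± 0.10 and did not pass (adjusted p = 0.0737).

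Both genes of Okazaki fragment maturation rose. Lig1, the ligase that seals the fragments, read 10.06, 10.25 and 10.06 in MDP CD103 high and 9.40, 9.13 and 9.09 in PBS CD103 high arrays. In the low gate its values were 9.18, 9.60 and 9.52 with MDP and 9.71, 9.50, 9.39 and 9.29 with PBS. Every other array lay below the 3 MDP CD103 high arrays, while the CD103 low arrays of both treatments overlapped. Lig1 rose by 0.91 ± 0.13 (adjusted p = 0.0052), and the gates of MDP mice differed by 0.69 ± 0.13 (adjusted p = 0.039).

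Fen1, the nuclease that trims the flaps between fragments, rose by 0.65 ± 0.11 (adjusted p = 0.01). Its second probe set, with a mean above the mark, differed by 0.17 (adjusted p = 0.617). Between the gates of MDP mice the Fen1 probe sets had opposite signs, 0.27 and -0.07, and neither passed.

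Of the 5 genes that protect the fork or take the helicase off at its end, 4 rose in CD103 high cells, with a median of 0.78. Lrr1, the receptor of the ubiquitin ligase that removes CMG at termination, read 6.71, 6.94 and 6.60 in MDP CD103 high and 5.48, 5.40 and 5.31 in PBS CD103 high arrays. It read 5.68, 5.71 and 5.84 in MDP CD103 low and 5.93, 5.73, 5.30 and 5.25 in PBS CD103 low arrays. The highest 3 of the 13 arrays were those of MDP CD103 high, and within the low gate the treatments overlapped. Its rise of 1.35 ± 0.16, or 2.56-fold, was the largest of the 47 members (adjusted p = 0.00428). The gates of MDP mice also differed most in Lrr1, by 1.01 ± 0.16 (adjusted p = 0.018).

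Wdhd1, which ties polymerase alpha to the helicase, read 9.27, 9.35 and 9.20 in MDP CD103 high and 8.71, 8.26 and 8.36 in PBS CD103 high arrays. It read 8.43, 8.76 and 8.68 in MDP CD103 low and 8.75, 8.76, 8.79 and 8.75 in PBS CD103 low arrays. No other array reached the 3 of MDP CD103 high, and in low cells the MDP and PBS arrays overlapped. The rise in high cells was 0.83 ± 0.11 (adjusted p = 0.00495), and it exceeded the difference in low cells, -0.14 ± 0.11, by 0.97 ± 0.15 (adjusted p = 0.0486).

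Clspn, the adaptor that carries the checkpoint signal at stalled forks, rose by 0.75 ± 0.13 (adjusted p = 0.013). Tipin rose by 0.78 ± 0.17 (adjusted p = 0.0338), while its partner in the fork protection complex, Timeless, differed by 0.74 ± 0.18 and missed the threshold (adjusted p = 0.0553). The 95% intervals of these partners overlapped, from 0.42 to 1.14 in Tipin and from 0.36 to 1.13 in Timeless. Wdhd1, Clspn and Lrr1 also passed between the gates of MDP mice.

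**Figure D4:**
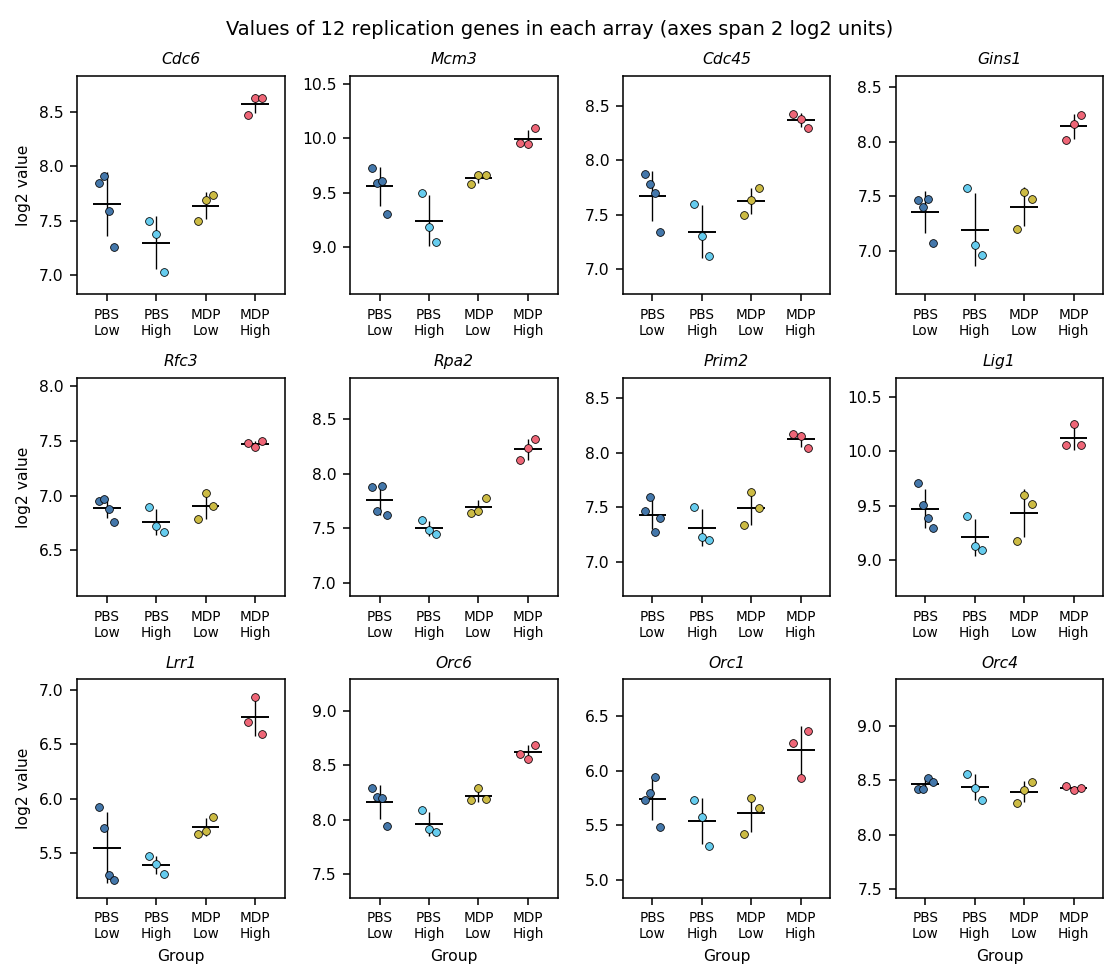
Log2 signal of 12 members on every array by group; dots are arrays, horizontal lines group means and vertical bars SD, and each axis spans 2 log2 units. In Cdc6, Cdc45, Lig1 and Lrr1 the 3 MDP CD103 high arrays lie above all other arrays, whereas in Orc4 the groups overlap.

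Beyond the 48 genes, a further 39 genes of replication were measured. In CD103 high cells 15 of 39 rose with MDP and 1 fell, with a median of 0.30, where 315 of all 22180 genes rose and 88 fell. In a list of origin firing factors that also held Mcm8 and Mcm9, 4 of 9 genes rose. Topbp1, a scaffold for helicase activation, rose by 0.63. Mtbp and Ticrr, which act together in Cdc45 loading, rose by 0.81 and 0.89, and Mcm8, a helicase of recombination, by 0.72. In CD103 low cells 0 of 39 passed with limma (0 with an unadjusted p under 0.05), and between the gates of PBS mice 0 of 39 (5 with an unadjusted p under 0.05). Over all 22180 genes, 1343 and 1889 had an unadjusted p under 0.05 in these comparisons.

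In the histone chaperones of new chromatin 4 of 5 rose in CD103 high cells: Nasp by 0.89, Chaf1b by 0.63, Asf1b by 0.66 and Chaf1a by 0.55. Among other replisome subunits and enzymes 5 of 11 rose and 1 fell. Atad5, which unloads the clamp, rose by 0.82, Dscc1 of an alternative clamp loader by 0.74 and Top2a, which untangles sister chromatids, by 0.89. Pold4, the small subunit of polymerase delta, fell by 0.46. Of 8 checkpoint genes 2 rose, Chek1 by 0.92 and Rad1 by 0.47. None of the 6 genes listed for removal of the helicase from DNA passed, and their median was 0.15. The largest difference among them was 0.46, in Traip (adjusted p = 0.107).

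Between the gates of MDP mice 6 of these 39 genes were higher and 0 lower: Mtbp by 0.86, Ticrr by 0.85, Atad5 by 0.75, Top2a by 0.89, Dscc1 by 0.65 and Asf1b by 0.72. The median of the 39 there was 0.15. The difference between the MDP responses passed in 1 of them, Mtbp, with 0.93 (adjusted p = 0.0486).

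Markers of CCR7-type mature dendritic cells were at their lowest in the MDP CD103 high arrays. All 13 measured genes of that list were lower in MDP CD103 high than in PBS CD103 high arrays, with a median of -1.01, and 3 of them fell: Ccr7, a homing receptor of migrating dendritic cells, Ccl5 and Relb. Among all 22180 genes 11907 were lower there and 88 fell. The mean over the list was 6.47 to 6.80 in MDP CD103 high and 7.41 to 7.85 in PBS CD103 high arrays, without overlap. It was 8.67 in MDP CD103 low array 1, against 7.38 and 7.41 in the other MDP CD103 low arrays, and 7.20 to 7.54 with PBS. Only Ccl17 of the 13 had a mean below the background mark. Between the gates of MDP mice all 13 were lower in the high gate, and Ccl5, Ccr7 and Cd63 passed, where 11 of all 22180 genes passed as lower. In CD103 low cells 12 of 13 were above 0 for MDP minus PBS, with a median of 0.34, and between the gates of PBS mice 12 of 13 were above 0 for high minus low, with a median of 0.23; 0 passed in either. In that MDP CD103 low array 1 the member mean was the lowest of its group at 7.92. PBS CD103 high array 4 had the highest member mean of its group, at 8.07, and the lowest mature marker mean, at 7.41. In PBS CD103 low array 6 the member mean was the lowest of its group at 7.90, and the mature marker mean was also the lowest of its group, at 7.20. The part of mature cells in the results on replication genes was not tested.

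Other sources of dividing cells were checked through lists of markers. The mean over 7 melanoma markers was 4.99 to 5.10 in MDP CD103 high and 4.94 to 5.19 in PBS CD103 high arrays. Between these groups 0 of the 7 passed with limma (0 with an unadjusted p under 0.05, against 2956 of all 22180 genes). Tyr, Dct, Mlana and Tyrp1 lay below the background mark. Pmel, Mitf and Sox10 lay above it, with means over all arrays of 5.84, 6.53 and 5.37. The mean over 4 measured erythroid markers was 5.40 to 5.48 and 5.25 to 5.47 in those groups, and 0 of the 4 passed with limma (2 with an unadjusted p under 0.05); Epor, Klf1 and Slc4a1 lay below the mark. Tfrc, the transferrin receptor that brings iron into erythroid and dividing cells, lay above it, at 7.31, 7.03 and 6.93 in MDP CD103 high and 6.67, 6.52 and 6.56 in PBS CD103 high arrays. These arrays did not overlap, and the difference was 0.50 ± 0.12 (adjusted p = 0.0575). Its part in the results on replication genes was not tested.

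**Figure D5:**
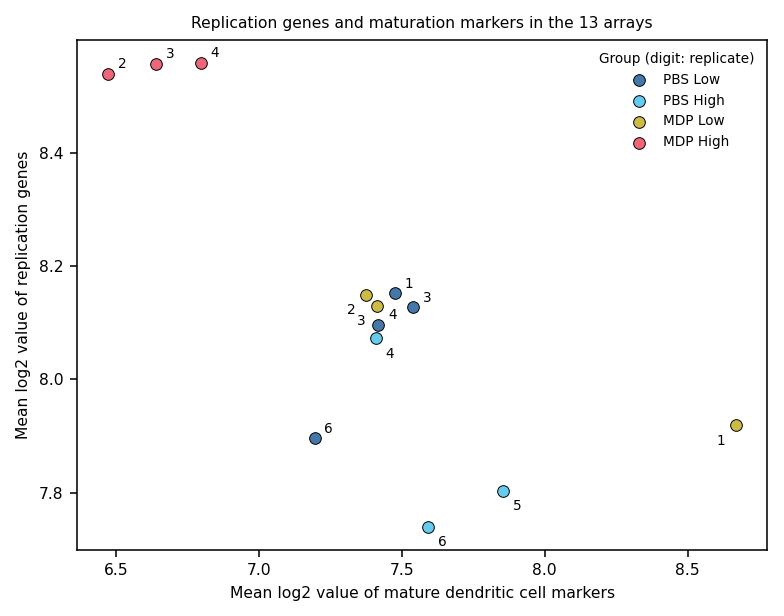
Mean log2 signal of the 47 members (vertical axis) against the mean of 13 mature dendritic cell markers (horizontal axis) for each array, labelled with its replicate number. The 3 MDP CD103 high arrays sit at the upper left, with marker means of 6.47 to 6.80 and member means of 8.54 to 8.56, and MDP CD103 low array 1 sits at the lower right, at 8.67 and 7.92.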

How the data were processed

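RNA from 13 samples of sorted dendritic cells, grouped by the labels' titles, was hybridised to Mouse Gene 2.0 ST arrays after 400 ng had been pre-amplified. The values deposited by the authors are on a log2 scale, 1 for each probe set, and came from RMA run in Affymetrix Expression Console, per the submitters' processing notes; RMA equalises the distributions of the arrays, so a change shared by most genes would be removed. For versions and the probe sets' genome build: not given in the sources used here.

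A total of 41345 probe sets included 23521 with a symbol of 1 gene; each of 22180 genes was read through its brightest probe set on average. With limma 3.58.1 in R 4.3.3, a model of all 13 arrays was fitted with 1 mean per group, no covariate and eBayes, and tests were two-sided with Benjamini-Hochberg adjustment over all genes and a threshold of 0.05. No filter on low values was used. Values are log2 differences ± SE. The script was tested on simulated data. Python 3.11.15, pandas 2.3.3, numpy 2.4.6 and matplotlib 3.10.9 were used for tables and plots.

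The members and lists were chosen with earlier results of these data known. Values of every array are given for the member with the smallest p of each complex in MDP minus PBS of CD103 high cells, and for the 3 members with the smallest p in each comparison; of other replication genes at most 4 per list that passed are named. Alternatives were the mean over probe sets, a variance trend with robust fitting, only the arrays compared, only genes above the background mark, centring, a further quantile normalisation, replicate blocks, the Xist class and leaving out each array. Fits of the arrays of 1 Xist class alone were added after seeing the data. Within a treatment, same-numbered arrays of the 2 gates deviated together from their group means in 4 of 4 pairs (r = 0.253, 0.115, 0.225 and 0.289). The arrays of these pairs also shared a Xist class. Across treatments the arrays numbered 4 of PBS CD103 low and MDP CD103 high reached r = 0.40, and they also shared a Xist class. The arrays numbered 4 of MDP CD103 high and PBS CD103 high shared a class too, with r = 0.06. These values therefore do not by themselves show that arrays are paired, and the labels do not say what a number marks. The model above has no block, so its differences, SE and calls do not use any pairing, and the fit with the number as a block within treatment is an alternative.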

Additional observations from a re-analysis of the deposited data

Results flagged for a closer look

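In the group of 4 PBS CD103 low arrays, 3 members had 1 array far from the rest, among the 47 members examined; chance alone flags about 1 group in 20. Orc3, an origin recognition subunit, read 8.23 (8.2251) on array 3 and 8.24 on the others, which were nearly equal. Dbf4, the activator of Cdc7, read 7.87 on array 6, against 8.11 to 8.12 on the others. Rpa1, the large RPA subunit, read 8.03 on array 6, against 8.29 to 8.33.

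The responses to MDP in CD103 high and CD103 low cells differed, by the test of the difference itself, in Rfc5 by 0.78, in Rpa2 by 0.80, in Wdhd1 by 0.97 and in Cdc7 by 1.03, each with an adjusted p of 0.0486.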

How the results depend on the processing

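The count of members that rose with MDP in CD103 high cells, 37, was 21 when only the arrays compared were fitted, 0 with arrays of low Xist alone and 0 with those of high Xist alone, and 14 to 39 when 1 array was left out. Its median was 0.89 with low Xist alone. The count between the gates of MDP mice, 14, was 0 with only the arrays compared, 8 with the Xist class as covariate, 0 in either Xist class alone, and 0 to 18 with 1 array left out. The interaction count, 4, was 15 with a variance trend and robust fit, 15 among genes above the background mark, 8 after quantile normalisation, 0 with the Xist class, 0 in either Xist class alone, and 0 to 23 with 1 array left out. The fits within a Xist class rest on 1 or 2 arrays in each group, a lone array being assumed to vary like the other groups, and were added after seeing the data. For replicate numbers that recur across treatments r ranged from -0.13 to 0.40, and whether these numbers pair samples cannot be told. With the number as a block the counts were 36, 14 and 7, in the same order. With the block within treatment they were 37, 17 and 9. The counts of 0 in CD103 low cells and between the gates of PBS mice were 0 in every alternative run. No call changed sign in any alternative. RMA leaves relative values only, and groups of 3 or 4 arrays set the precision.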

Other observations

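Lists of markers of other cells that the sort could hold were read in MDP minus PBS of CD103 high cells. In the plasmacytoid dendritic cell list 2 of 10 genes fell, Pacsin1 by 0.77 and Cd300c by 0.96, and 0 rose, where 88 of all 22180 genes fell. The mean of Pacsin1 over all arrays, 5.28, is close to the background mark of 5.12. The other genes of the list did not pass, and the median of the list was -0.10. In the lists of cDC2 (9 genes), monocytes and macrophages (7), neutrophils (7), B cells (6), T cells (6) and natural killer cells (6), 0 genes passed with limma. An unadjusted p under 0.05 was found in 3, 3, 0, 0, 1 and 1 of them, against 2956 of all 22180 genes.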
